A study of Mus musculus with 6 samples.

Results

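The BCL2 family genes decide whether a cell starts apoptosis through its mitochondria, and 10 of them were followed here in mouse mammary stem cells with and without MLL3. They were chosen by name: the anti-apoptotic genes Bcl2, Bcl2l1 and Mcl1, the multi-domain pro-apoptotic genes Bax and Bak1, and the BH3-only genes Bad, Bid, Bik, Bmf and Bcl2l11. Of these, 9 had a probe set carrying their symbol alone, out of 22180 genes measured, and Bax was not paired with such a probe set and is not analysed here. For a gene with several probe sets, the brightest by its mean stood for it.

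The study compared Mll3-null cells, in which the histone methyltransferase MLL3 (gene Kmt2c) is deleted, with wild-type (WT) cells, by 1 Affymetrix array for each of 3 replicates of either genotype. The lines were generated by CRISPR from mammary stem cells and grown as organoids, which are cultures in 3 dimensions. No age, strain, passage or number of clones is given, and nothing says whether replicates of a genotype are separate lines, so the tests measure only the spread between these samples. Values are log2 expression, in which a difference of 1 is a doubling, differences are Mll3-null minus WT, and values listed for the arrays of a genotype are those of its replicates 1, 2 and 3 in turn. The small number of arrays limits the precision.

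The family works by direct binding between its proteins. BAX and BAK1 make pores in the outer mitochondrial membrane, through which cytochrome c leaves to start the caspase cascade; BCL2, BCL-XL (from Bcl2l1) and MCL1 hold them in check; and the BH3-only proteins, which share a single short helix with the rest, sense stress and either block the protectors or activate the pore formers. In the mammary gland the family is known for its part in clearing cells from the lumen of growing ducts and in the involution that follows weaning. Many of its members are also set after transcription, by phosphorylation, cleavage or degradation, which an array of RNA does not see.

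All arrays carried mammary epithelial markers, but most basal markers were lowest on Mll3-null replicate 3. The mean log2 value of the 7 measured of 8 basal markers, with keratin 14 and p63 among them, was 8.62 and 8.91 in Mll3-null replicates 1 and 2 but 5.92 in Mll3-null replicate 3, against 8.10 to 8.60 in WT. Of these 7, 6 were lowest on that array, among them Myh11, which ran only from 5.08 to 5.29 over all arrays. The oxytocin receptor gene Oxtr went the other way, at 4.74, 6.54 and 8.35 in Mll3-null arrays, against 5.18, 4.76 and 6.35 in WT arrays. Mll3-null replicate 3 also lay more than 1 log2 unit below the other 5 for 294 genes and above them for 123, so a difference of a named gene that it moved by over 1.5 times is given without it as well. The 8 luminal markers averaged 8.90, 9.29 and 9.49 in Mll3-null arrays, against 9.25, 8.50 and 9.18 in WT arrays. Markers of fibroblasts (7 of 7 measured), endothelium (5 of 5) and immune cells (6 of 7) averaged between 3.77 and 4.46 on every array, near the array medians of 4.35 to 4.40. Single markers lay higher: the fibroblast marker Pdgfra reached 6.32 on Mll3-null replicate 2, and the highest values were 5.07 for endothelium and 5.61 for immune cells. The 6 measured of 7 proliferation markers averaged 8.55, 7.57 and 6.87 in Mll3-null arrays, against 8.64, 7.73 and 8.15 in WT arrays. Kmt2c itself differed by 0.10 ± 0.29 (log2, SE), and by -0.11 to 0.41 with 1 array left out, which does not check the labels because the position of its probe set against the deletion is not given.

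None of the 9 genes passed the test. With limma and Benjamini-Hochberg adjustment over all 22180 genes, 0 members and 0 genes in all (a background of 0%) had an adjusted p under 0.05, and the members' adjusted p ran from 0.84 to 0.99. The anti-apoptotic Bcl2l1 and the pore former Bak1 were the only members whose 3 Mll3-null arrays all lay below the 3 WT arrays, that is 2 of 9, where 5.31% of all genes did so; none were wholly above, and 10.7% of genes were separated in either direction. They were also the only members with an unadjusted p under 0.05, against 2.42% of all genes on the lower side; 0 members were on the higher side, against 2.51%, and 4.93% of genes in either direction. The count of 2 was 0 without replicate 2 of either genotype, 1 without replicate 3 of either, and 4 without Mll3-null replicate 1. The counts over all genes moved as well, from 1093 with every array to 2742 without Mll3-null replicate 1. Without replicate 2 they were 716 (Mll3-null) and 925 (WT), and without replicate 3 they were 858 (Mll3-null) and 845 (WT). Of the 9 members 7 had a lower mean in Mll3-null cells, as did 48.5% of all genes, and 2 a higher one, as did 51.5%. Their median difference was -0.06, against 0.01 over all genes.

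**Figure D1:**
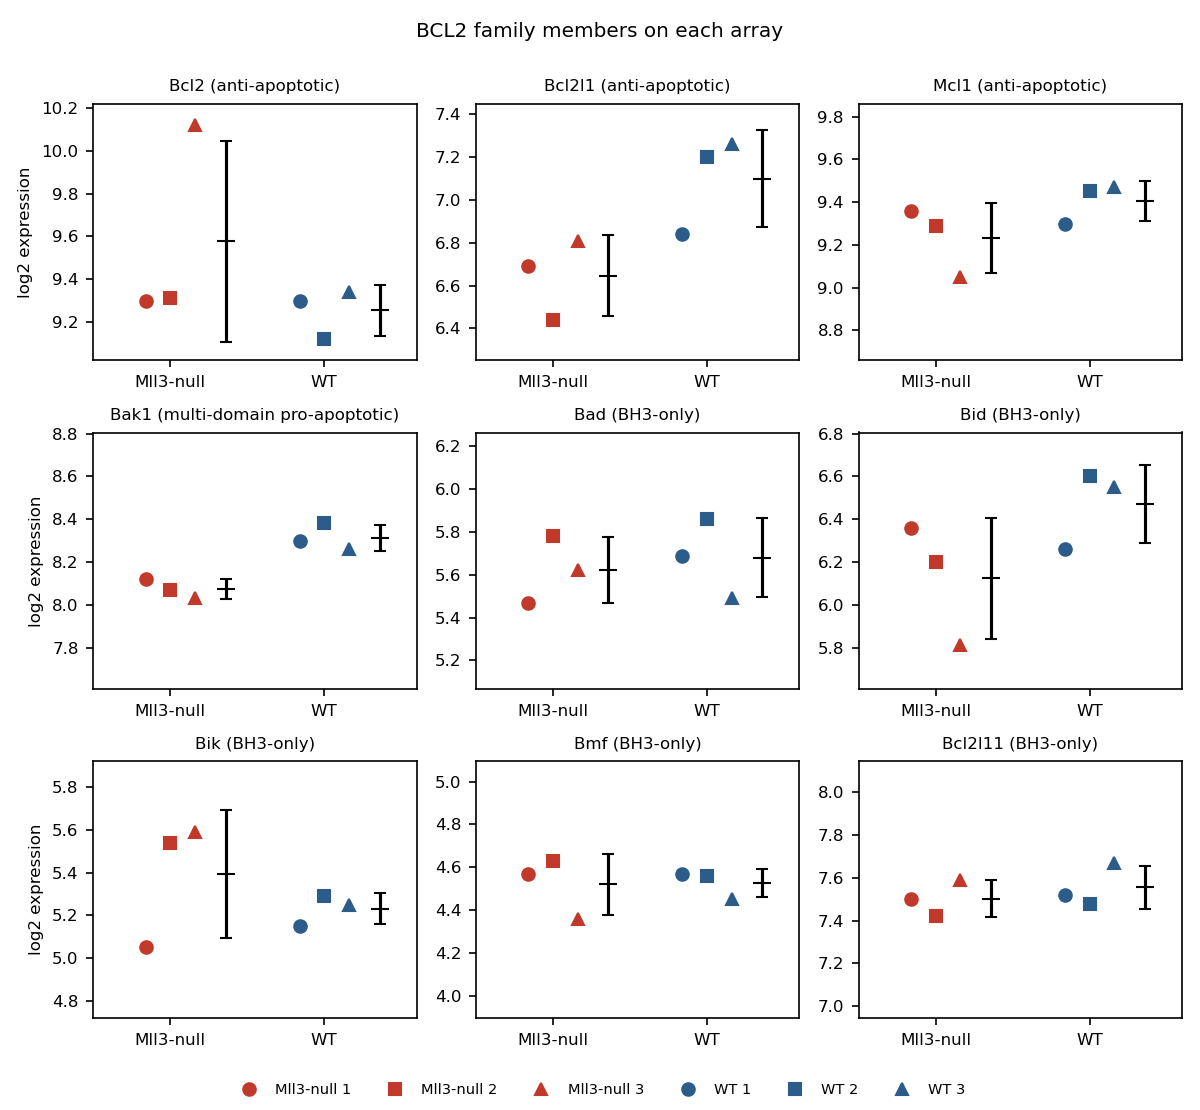
Log2 expression (vertical axis, 1.2 units in every panel) of the 9 measured BCL2 family genes on each array, Mll3-null in red and WT in blue, with the mean and SD of each group in black. Bak1 and Bcl2l1 separate the genotypes, and Bcl2 is high on Mll3-null replicate 3 alone.

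Among the protectors, Bcl2l1, which encodes the long isoform BCL-XL and the short pro-apoptotic BCL-XS, was at 6.69, 6.44 and 6.81 in Mll3-null arrays, against 6.84, 7.20 and 7.26 in WT arrays. The groups did not overlap, but only 0.02 separated the highest Mll3-null array from the lowest WT array, WT replicate 1. The mean was 6.65 ± 0.19 in Mll3-null cells and 7.10 ± 0.23 in WT cells (SD, n = 3 each). The difference of -0.45 ± 0.15 (SE), or 1.37-fold lower, had a 95% interval of -0.82 to -0.08 and an adjusted p of 0.84 (limma). A single probe set read the gene, so the 2 isoforms are not told apart.

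Bcl2, the founding member of the family, was at 9.30, 9.31 and 10.12 in Mll3-null arrays, against 9.30, 9.12 and 9.34 in WT arrays. Mll3-null replicate 3 was 0.78 above the next highest array, and the other 2 Mll3-null arrays lay inside the WT range. The mean was 9.58 ± 0.47 in Mll3-null cells and 9.25 ± 0.12 in WT cells (SD, n = 3 each), a difference of 0.32 ± 0.23 (SE, adjusted p = 0.84, limma). Without Mll3-null replicate 3 the difference was 0.05, and with array weights, which count arrays that depart from their group for less, it was 0.15. A dimmer probe set of the gene, at 3.11 to 3.37 in Mll3-null arrays and 3.21 to 3.67 in WT arrays, did not show the high value. It lay below the array medians of 4.35 to 4.40, so it may have been unable to show it. The mean of both probe sets, which weighs the dim one equally, differed by 0.09.

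Bcl2 lies on chromosome 1, where expressed genes were shifted on the same array. The median of 843 chromosome 1 genes with a mean over 4 was 0.16 above their 6-array means in Mll3-null replicate 3, 0.07 above in replicate 2 and -0.07 in replicate 1, against -0.08 to -0.05 in WT arrays. A shift of like size was seen in a WT array: chromosome 10 genes stood at 0.16 in WT replicate 1, against -0.04 to -0.02 in the other arrays. With every gene set against the median of its own chromosome the difference of Bcl2 was 0.20. Most basal markers, though not Oxtr, were low on Mll3-null replicate 3, where Bcl2 was high. The part of either the marker level or the chromosome 1 shift in the Bcl2 value was not tested. In RNA from whole cultures, fewer cells of a type and less RNA per cell cannot be told apart. The 3 genes closest to the profile of Bcl2 over the 6 arrays, among 8751 genes with a mean over 6, were Atic, Gata3 and Pomgnt1 (root mean square difference 0.017, 0.057 and 0.059). Atic, the closest, was at 8.82, 8.86 and 9.64 in Mll3-null arrays, against 8.82, 8.68 and 8.88 in WT arrays. Gata3, a transcription factor of luminal mammary cells, was at 7.89, 7.94 and 8.73 in Mll3-null arrays, against 7.83, 7.62 and 8.01 in WT arrays. Pomgnt1 was at 8.42, 8.32 and 9.09 in Mll3-null arrays, against 8.32, 8.17 and 8.48 in WT arrays. These genes were picked for their likeness to Bcl2, so their high value on Mll3-null replicate 3 adds nothing of its own.

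Mcl1, a short-lived protector, was at 9.36, 9.29 and 9.05 in Mll3-null arrays, against 9.30, 9.45 and 9.47 in WT arrays. The groups overlapped through Mll3-null replicate 1, which stood above WT replicate 1. The difference was -0.17 ± 0.11 (SE), with a 95% interval of -0.44 to 0.10 and an adjusted p of 0.84 (limma), and -0.08 without Mll3-null replicate 3. A second, dimmer probe set of Mcl1 differed by -0.12.

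Bak1, which encodes the pore former BAK, was the member with the smallest p. It was at 8.12, 8.07 and 8.03 in Mll3-null arrays, against 8.30, 8.38 and 8.26 in WT arrays. All Mll3-null arrays lay below all WT arrays with a gap of 0.14, wider than the range of 0.09 within the Mll3-null arrays and of 0.12 within the WT arrays. The mean was 8.07 ± 0.05 in Mll3-null cells and 8.32 ± 0.06 in WT cells (SD, n = 3 each). The difference of -0.24 ± 0.08 (SE), or 1.18-fold lower, had a 95% interval of -0.44 to -0.05 and did not pass the correction (adjusted p = 0.84, limma). Leaving out each array in turn kept it between -0.27 and -0.21, against -0.58 to -0.34 for Bcl2l1. The nearest profiles to Bak1 were those of Pdzd8, Wrap73 and Macf1 (root mean square difference 0.030, 0.033 and 0.034).

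**Figure D2:**
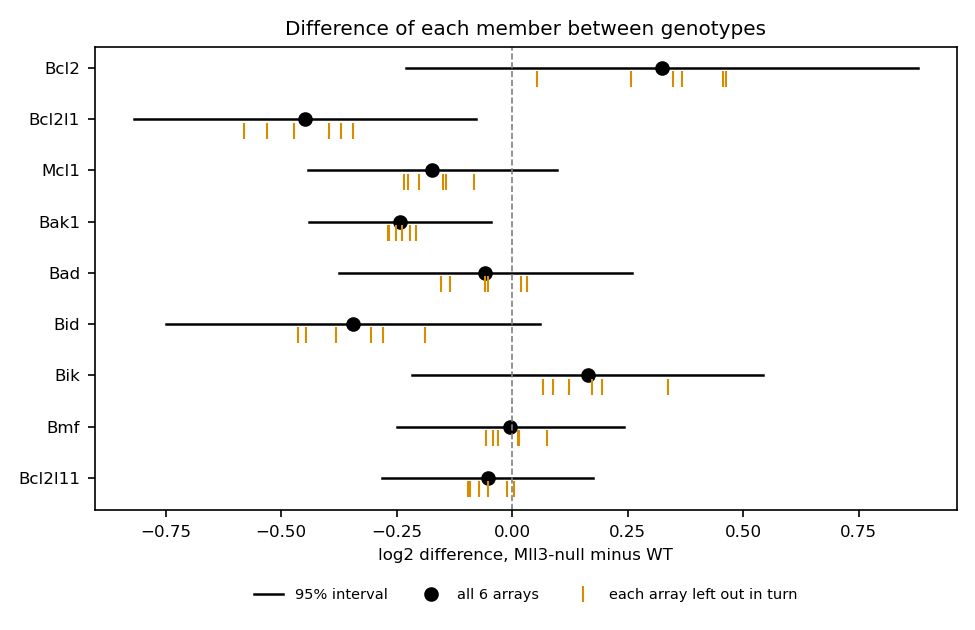
Log2 difference of each member, Mll3-null minus WT (horizontal axis), with its 95% interval from limma as a line and the values with each array left out in turn as ticks. The intervals of Bak1 and Bcl2l1 lie below 0 before correction for 22180 genes, and the ticks of Bcl2 reach down to 0.05.

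The sequences before the transcription starts are shown for the 2 members whose groups separated and for Bcl2, whose spread was the widest. They describe the CG content of each promoter, and any link between it and MLL3 was not tested. Each is the stretch of 250 bases before a start in RefSeq on GRCm38.p6, written 5′ to 3′ along the gene's minus strand with every CG dinucleotide in capitals: Bcl2 at chr1:106714291-106714540, Bak1 at chr17:27028628-27028877, and Bcl2l1 at chr2:152831729-152831978, the farthest upstream of its 3 listed starts.
Bcl2: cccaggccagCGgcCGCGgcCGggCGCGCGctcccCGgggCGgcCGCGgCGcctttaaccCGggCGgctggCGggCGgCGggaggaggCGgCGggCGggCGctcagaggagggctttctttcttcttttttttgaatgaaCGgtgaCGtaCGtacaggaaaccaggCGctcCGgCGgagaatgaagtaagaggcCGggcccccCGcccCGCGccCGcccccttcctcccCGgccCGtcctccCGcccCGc
Bak1: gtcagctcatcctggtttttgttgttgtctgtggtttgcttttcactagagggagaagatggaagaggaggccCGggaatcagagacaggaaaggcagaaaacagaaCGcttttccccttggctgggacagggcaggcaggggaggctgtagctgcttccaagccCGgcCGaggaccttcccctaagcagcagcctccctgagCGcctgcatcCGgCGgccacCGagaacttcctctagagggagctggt
Bcl2l1: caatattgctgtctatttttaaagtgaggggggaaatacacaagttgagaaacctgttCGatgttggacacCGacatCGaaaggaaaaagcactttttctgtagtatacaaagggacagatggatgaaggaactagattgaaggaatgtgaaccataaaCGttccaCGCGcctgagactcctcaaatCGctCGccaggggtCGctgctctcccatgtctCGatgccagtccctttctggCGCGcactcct
The Bcl2 stretch holds 36 CG dinucleotides, the Bak1 stretch 8 and this Bcl2l1 stretch 12, and the other Bcl2l1 starts have 11 and 0, where the median over 32851 RefSeq promoter windows of this length is 6 (quartiles 2 and 16). The GC box GGGCGG, which itself holds a CG and was searched on both strands, occurs 7 times before Bcl2 and not before Bak1 or any Bcl2l1 start, and in 32.7% of all windows. The hypoxia response core ACGTG, held by 16.6% of windows and part of the E-box CACGTG, and the TATA box TATAAA, held by 12.4%, are in none of these stretches. The array does not tell which start was used.

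Of the BH3-only genes, Bid, cleaved by caspase 8 to link death receptors to the mitochondria, had the widest difference. It was at 6.36, 6.20 and 5.81 in Mll3-null arrays, against 6.26, 6.60 and 6.55 in WT arrays. Mll3-null replicate 3 was the lowest of all arrays, and WT replicate 1 lay among the Mll3-null arrays. The difference of -0.34 ± 0.17 (SE), with a 95% interval of -0.75 to 0.06 and an adjusted p of 0.84 (limma), was -0.19 without Mll3-null replicate 3.

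Bik, a BH3-only protein of the endoplasmic reticulum, was at 5.05, 5.54 and 5.59 in Mll3-null arrays, against 5.15, 5.29 and 5.25 in WT arrays. Mll3-null replicates 2 and 3 lay above every WT array and replicate 1 below every WT array. The SD was 0.30 in Mll3-null cells and 0.07 in WT cells, and the difference of 0.16 ± 0.16 (SE) did not pass (adjusted p = 0.86, limma). It was 0.34 without Mll3-null replicate 1, 0.09 without replicate 2 and 0.07 without replicate 3, so each Mll3-null array moved it by more than 1.5 times.

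The other BH3-only genes had the smallest differences. Bcl2l11, which encodes BIM, an activator that binds all the protectors and acts in the loss of cells from mammary acini, was at 7.50, 7.42 and 7.59 in Mll3-null arrays, against 7.52, 7.48 and 7.67 in WT arrays. Its groups overlapped, with a difference of -0.05 ± 0.10 (SE) and a 95% interval of -0.28 to 0.18, which leaves room for a change of either sign, and it ran from -0.10 without Mll3-null replicate 3 to 0.0035 without WT replicate 3. Bmf, known for its role when epithelial cells lose their attachment, was at 4.57, 4.63 and 4.36 in Mll3-null arrays, against 4.57, 4.56 and 4.45 in WT arrays. These values lie near the array medians and no detection calls were used, so whether Bmf was above background is not known. Its difference was -0.0046 ± 0.10 (SE), with a 95% interval of -0.25 to 0.24, and it was 0.07 without Mll3-null replicate 3. Bad, switched off by survival kinases, was at 5.47, 5.78 and 5.62 in Mll3-null arrays, against 5.69, 5.86 and 5.49 in WT arrays. Both groups of Bad arrays covered much the same span, and the difference was -0.06 ± 0.13 (SE; 95% interval -0.38 to 0.26), which was 0.03 without WT replicate 2 and 0.02 without Mll3-null replicate 1. A second probe set, shared with the neighbouring gene Gpr137 and therefore not used, differed by -0.20.

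The spread within a genotype is given for the members beside that of all genes. Mll3-null replicate 3 was the highest or the lowest array for 6 of the 9 genes, as it was for 45.9% of all genes, the largest share of any array. The SD was larger in Mll3-null than in WT cells for 5 of 9 members, against 55.1% of all genes, with a median of 0.16 in Mll3-null and 0.10 in WT cells over the members and of 0.14 in Mll3-null and 0.13 in WT cells over all genes.

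The balance of the 2 sides was read from each gene's deviation from its own 6-array mean, since levels of different probe sets cannot be set against each other. It describes chosen members, lacks Bax and carries no test. The 3 anti-apoptotic members averaged -0.09, -0.19 and 0.13 in Mll3-null arrays, against -0.06, 0.05 and 0.15 in WT arrays. The 6 pro-apoptotic members averaged -0.07, 0.02 and -0.08 in Mll3-null arrays, against -0.0031, 0.11 and 0.03 in WT arrays. The mean of either side was lower in Mll3-null cells, with a difference of -0.10 for the protectors and of -0.09 for their opponents, and the arrays of the genotypes overlapped on both sides.

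The balance, pro minus anti, was 0.01, 0.21 and -0.21 in Mll3-null arrays, against 0.05, 0.06 and -0.13 in WT arrays. The Mll3-null arrays thus held both the highest and the lowest value. The group means were 0.0047 ± 0.21 in Mll3-null cells and -0.0047 ± 0.10 in WT cells (SD, n = 3 each), a difference of 0.0094. Without Mll3-null replicate 3 the difference was 0.12. With all arrays it was 0.22 with Bcl2 left out and -0.17 with Bcl2l1 left out, so the near-zero value is the sum of opposite parts. Of the 18 pairs of 1 pro- and 1 anti-apoptotic gene, the mean difference favoured the pro-apoptotic gene in all 6 against Bcl2l1 and in none of the 6 against Bcl2, while against Mcl1 it did so in 4 of 6. These counts add nothing of their own, because each pair sets the difference of 1 member against that of another. Bcl2l1 and Bcl2 had the lowest and the highest difference of the 9 members (-0.45 and 0.32), and the difference of Mcl1 was -0.17. The difference of Bcl2 was 0.05 without Mll3-null replicate 3.

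**Figure D3:**
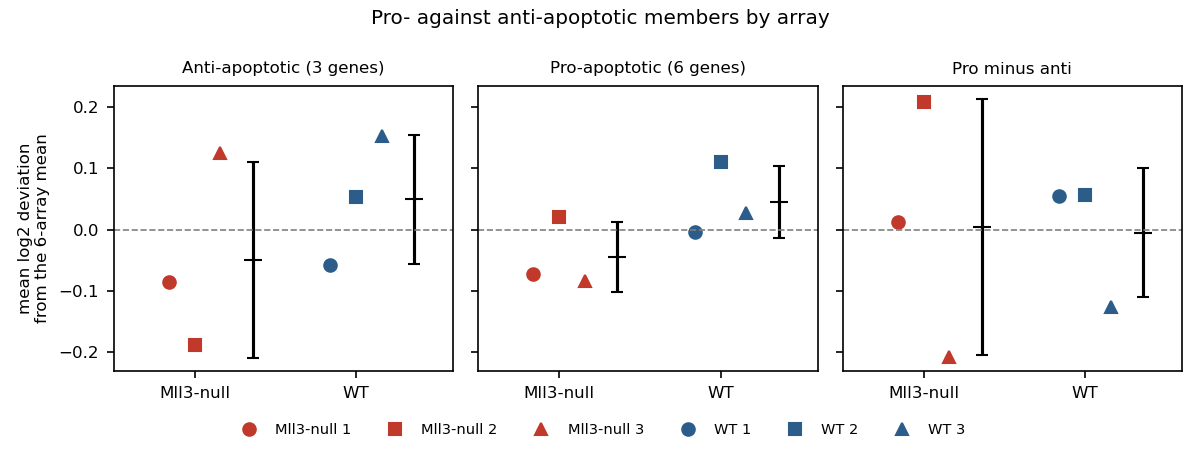
Mean log2 deviation from the 6-array mean (vertical axis) of the 3 anti-apoptotic members, of the 6 pro-apoptotic members, and the second minus the first, for each Mll3-null (red) and WT (blue) array with the group mean and SD in black. The balance spans -0.21 to 0.21 in Mll3-null arrays, around the WT values of -0.13 to 0.06.

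The rest of the pathway was read from 9 lists of 91 genes, of which 78 were measured. None passed the test, the mean in Mll3-null cells was above that in WT for 44 and below it for 34, and their median difference was 0.03, against 0.01 over all genes. Without overlap 5 genes were higher, where 5.44% of all genes were, and 5 were lower, against the 5.31% given above.

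Of the closer relatives, the protector Bcl2l2 differed by -0.09 ± 0.09 (SE), by -0.16 without Mll3-null replicate 3 and by -0.04 without replicate 2, and Bcl2l10, dim at 3.78 to 3.91 on all arrays, by 0.02 ± 0.08. Bok, a pore former related to BAX, was at 7.19, 7.03 and 5.91 in Mll3-null arrays, against 7.11, 6.88 and 6.96 in WT arrays. It was low on Mll3-null replicate 3 alone, and without that array its difference of -0.27 ± 0.33 turned to 0.13. Pmaip1, the BH3-only gene of NOXA, was at 6.37, 6.60 and 6.30 in Mll3-null arrays, against 6.53, 6.77 and 6.85 in WT arrays. Its groups overlapped through Mll3-null replicate 2, and it differed by -0.30 ± 0.13 without passing (adjusted p = 0.84, limma), and by -0.19 with array weights. Hrk, also BH3-only and dim, differed by 0.11 ± 0.10, and by 0.05 without WT replicate 1.

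Of the 10 more distant relatives 7 were measured, and 5 of them averaged higher in Mll3-null cells. Bnip3, a mitophagy receptor and target of the hypoxia-inducible factors, was at 7.22, 6.68 and 6.02 in Mll3-null arrays, against 6.01, 5.69 and 5.82 in WT arrays. Its lowest Mll3-null array stood barely above the highest WT array, and its difference of 0.80 ± 0.29, or 1.74-fold, did not pass (adjusted p = 0.84, limma) and was 0.51 without Mll3-null replicate 1. Bnip1 differed by 0.13 ± 0.11, by 0.04 without Mll3-null replicate 1, by 0.21 without replicate 2 and by 0.05 with array weights.

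Downstream of the mitochondria, 7 of the 12 measured apoptosome and caspase genes averaged lower in Mll3-null cells. Apaf1, the scaffold of the apoptosome, was at 7.54, 7.03 and 6.57 in Mll3-null arrays, against 7.78, 7.79 and 7.87 in WT arrays. All Mll3-null arrays lay below all WT arrays, with replicate 3 lowest, and the difference was -0.77 ± 0.23 (SE), or 1.70-fold lower, without passing (adjusted p = 0.84, limma). It was -0.53 without Mll3-null replicate 3. Cycs, the cytochrome c gene, was at 10.34, 10.19 and 10.38 in Mll3-null arrays, against 10.56, 10.48 and 10.67 in WT arrays. It was likewise separated, with a difference of -0.27 ± 0.10 (adjusted p = 0.84, limma), and 5 probe sets carry its symbol. Of the 12 genes, these 2 were separated on the lower side and 1 other on the higher side, against 5.31% and 5.44% of all genes. Of the inhibitor of apoptosis genes 5 of 9 averaged higher in Mll3-null cells, with Birc2, a ubiquitin ligase of the TNF receptor complex, at 0.19 ± 0.11 and at 0.08 with array weights. Naip2, dim at 2.33 to 3.07, differed by 0.37 ± 0.20, by 0.22 without Mll3-null replicate 3 and by 0.59 without replicate 1.

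In the death receptor pathway 7 of 11 measured genes averaged higher in Mll3-null cells. Tnfrsf10b, the receptor for the death ligand TRAIL, was at 8.75, 8.45 and 8.68 in Mll3-null arrays, against 9.10, 9.32 and 9.40 in WT arrays. Its difference of -0.65 ± 0.12 (SE) had the smallest unadjusted p of the 9 lists and an adjusted p of 0.84 (limma). Tnf, the ligand of the TNF receptors, was also separated, at 8.73, 7.98 and 7.84 in Mll3-null arrays, against 8.81, 9.26 and 8.75 in WT arrays. Only 0.02 lay between its groups, and its difference of -0.75 ± 0.26 (SE) did not pass (adjusted p = 0.84, limma).

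Of the 21 measured regulators of the family 12 averaged lower in Mll3-null cells. Trib3, a pseudokinase induced in the stress response, was at 7.06, 6.87 and 8.63 in Mll3-null arrays, against 6.10, 6.19 and 6.32 in WT arrays. Every Mll3-null array was above every WT array, with a difference of 1.32 ± 0.45 (adjusted p = 0.84, limma) that was 0.76 without Mll3-null replicate 3. Dynll1, a dynein light chain that tethers BIM, differed by -0.28 ± 0.12. Of the 11 measured mitochondrial partners 9 averaged higher in Mll3-null cells, with Mfn1, a fusion GTPase, at 0.20 ± 0.10 and Mff, a fission receptor, at 0.22 ± 0.16, neither past the test. Mff was at 0.07 without Mll3-null replicate 3, 0.12 without WT replicate 1, 0.33 without Mll3-null replicate 1 and 0.10 with chromosome centring.

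**Figure D4:**
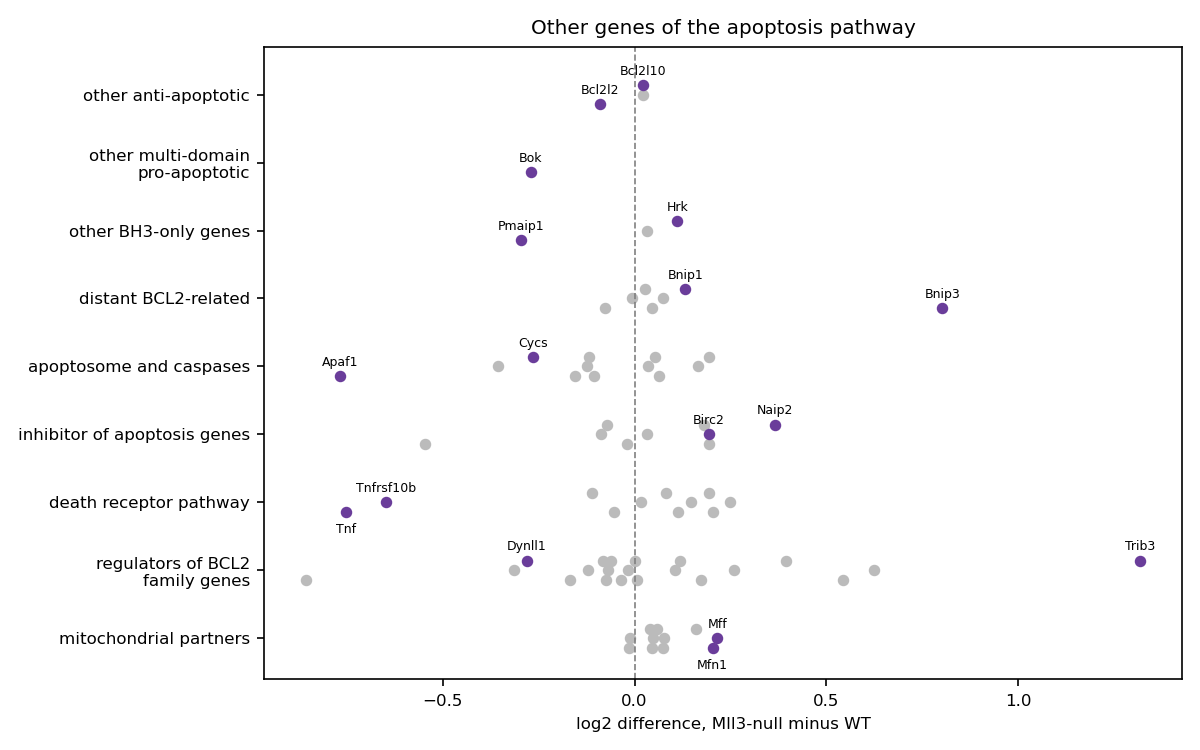
Log2 difference, Mll3-null minus WT (horizontal axis), of the 78 measured genes of the wider apoptosis pathway by list, each dot a gene and the 2 genes of smallest p in a list named in purple. Most dots lie near 0, with Apaf1, Tnf and Tnfrsf10b on the lower side and Trib3 and Bnip3 on the higher side, none past the correction.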

How the data were processed

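The deposited table holds log2 expression for 41345 probe sets on the 6 arrays, which the authors made with Affymetrix Expression Console per the submitters' processing notes. Sources used here do not give the summarization or normalization method. The arrays share a common scale, which hides any overall change in RNA content. By the platform annotation 23521 probe sets had 1 symbol, 1814 several, and 16010 are unnamed here. For 1082 genes with several probe sets the one with the highest mean was used.

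The 2 genotypes were tested two-sided by limma 3.58.1 (R 4.3.3) with no other term, and p-values were adjusted by Benjamini-Hochberg over 22180 genes, with 0.05 as the threshold. The method was run on simulated data with planted differences larger than that of any member, so the run does not tell whether differences of their size would be found. The members, lists and tests were chosen with earlier results of these data known. Named beside the members were Kmt2c, the 2 genes of smallest p in each wider list, and the 3 nearest profiles of the member of smallest p in each direction. Alternatives covered the spread model, array weights, a filter on dim genes, quantile, median and chromosome centring, probe set choice, a replicate block, a stricter threshold, leaving out each array, and the make-up of the balance. Promoter sequences and chromosomes are from RefSeq, GRCm38.p6; 9 of the 10 genes had a promoter entry.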

Additional observations from a re-analysis of the deposited data

How the results depend on the processing

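In each alternative run, 0 members and 0 genes in all passed the adjusted threshold in limma, and the members' adjusted p ran from 0.30 to 1.00. Of 126 member differences under 14 alternatives, 118 kept their sign. The 8 others belong to the 3 smallest differences. Bad turned to 0.038 with array weights and ran from -0.15 to 0.032 with 1 array left out, Bmf turned to 0.058 with array weights and ran from -0.058 to 0.075, and Bcl2l11 ran from -0.10 to 0.0035. With all arrays 2 members had an unadjusted p under 0.05. That count was 1 with the replicate block and 0 to 4 with 1 array left out: 0 without replicate 2 of either genotype, 1 without replicate 3 of either, and 4 without Mll3-null replicate 1. Genes at an unadjusted p under 0.05 numbered 1093 in the main comparison, 2504 with array weights, 721 among genes with a mean above 4, and 716 to 2742 with 1 array left out, the lowest without replicate 2 and the highest without replicate 1 of the Mll3-null arrays. The balance moved to 0.22 without Bcl2 and to -0.17 without Bcl2l1, and lay between -0.09 and 0.12 with 1 array left out. Beyond the members, Bcl2l10 turned to -7.7e-05 with median centring and ran from -0.0075 to 0.053 with 1 array left out, Bok ran from -0.51 to 0.13, and Kmt2c from -0.11 to 0.41. The filter on dim genes removed Bcl2l10, Hrk and Naip2, so it gave no value for them. The cause was not tested. The replicate numbers occur in both groups, and same-numbered arrays deviated together with r = 0.03, 0.08 and 0.31 across genes. For arrays of unlike number r ran from -0.29 to 0.22, and not every array correlated best with its own number. Deviations from the mean of only 3 arrays cannot decide whether same-numbered arrays share a batch, and the labels name none. With the replicate block 1290 genes had an unadjusted p under 0.05 (limma), against 1093 in the main comparison. With 3 arrays a group, 95% intervals of the members were 0.40 to 1.11 log2 units wide.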
